A study of Mus musculus with 6 samples.

Results

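The 10 genes described here encode cytokines and receptors of the interleukin-1 (IL-1) family, and all were found by symbol among the 54532 genes of the deposited expression table. They were the agonists Il1a and Il1b, the receptor antagonist Il1rn, Il18 and its soluble inhibitor Il18bp, the alarmin Il33, the receptors Il1r1 and Il18rap, the decoy receptor Il1r2 and the shared co-receptor Il1rap. RNA was sequenced from macrophages of C57BL/6J mice, 3 wild type (WT) libraries with replicate numbers 1, 2 and 3 and 3 progranulin knockout (PGRN KO) libraries with replicate numbers 4, 5 and 6. According to the labels the cells came from the peritoneal cavity, were plated at 2000000 per well and were exposed for 6 h to Candida albicans, 1 fungal cell to each macrophage, in both genotypes. Cells without the fungus were not analysed here. The text of the study names bone marrow-derived macrophages instead, and a different fungal dose for this sequencing. The origin and the dose in the labels were taken. The knockout removes progranulin from the whole animal, the knockout mice came from a different supplier than the WT mice, and genotype and supplier cannot be told apart. The age and sex of the animals are not given in the labels, and nothing says whether the libraries of a group came from separate mice or cultures, so that p-values measure only the spread between these libraries.

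IL-1α and IL-1β bind the same receptor, IL1R1, which then recruits IL1RAP and signals through MYD88 and the IRAK kinases to NF-κB. IL-1Ra, the product of Il1rn, occupies IL1R1 without recruiting the co-receptor, and IL1R2 binds IL-1 without signalling. Pro-IL-1β and pro-IL-18 are made in the cytosol and are cut by caspase-1 in the inflammasome, whereas IL-18 outside the cell is held by IL-18BP. IL-33 is a nuclear protein, mostly of stromal and epithelial cells, that acts on leukocytes once it is set free. The values below are transcript levels and do not show processing or release of the proteins.

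The libraries held 15996786 to 17551619 fragments. Grn, the gene of progranulin, was measured at 324, 337 and 325 FPKM (fragment counts divided by gene model length and library size) in WT and at 0.0166, 0 and 0.0167 FPKM in PGRN KO, so that the genotypes followed the labels. PGRN KO replicate 6 stood apart from the other libraries. Its deviations from the mean level of each gene were correlated with gene length across genes with a Spearman rho of -0.47. In the other 5 libraries rho was 0.15 to 0.24. The results of Il18, Il33, Il1rn and Il1rap are given with and without replicate 6. All 8 macrophage markers passed the filter on low values, with a summed level of 11620 to 12560 FPKM in WT and 10440 to 14380 FPKM in PGRN KO. Most of this sum was Lyz2 and Cd14, with WT means of 5745 and 4831 FPKM, and it hides changes of lower markers. The knockout mean was higher than the WT mean for 2 of the 8 and lower for 6. Mertk rose from a mean of 1.41 to 3.24 FPKM (limma, adjusted p of 0.00640). Csf1r fell from a mean of 32.5 to 24.65 FPKM (limma, adjusted p of 0.0178). Summed levels of the other marker lists were 27.5 to 30.6 against 38.1 to 41.6 FPKM for large peritoneal macrophages, 60.7 to 66.9 against 32.5 to 36.4 for neutrophils, 9.26 to 12.7 against 17.9 to 23.8 for mast cells, 1.51 to 2.51 against 6.76 to 9 for B cells, 3.29 to 3.70 against 4.52 to 8.38 for T and NK cells, 1.77 to 2.23 against 1.08 to 1.38 for dendritic cells and 1.10 to 1.28 against 2.04 to 3.71 for fibroblasts and mesothelial cells, in each case WT against PGRN KO. Timd4, Alox15, Vsig4 and Selp, 4 of the 9 large peritoneal macrophage markers, had a mean below 1 FPKM. So had 9 of 11 neutrophil markers, and that sum was almost wholly S100a8 and Csf3r. The same held for 6 of 9 mast cell, 8 of 9 T and NK cell and 4 of 6 B cell markers. It also held for all 5 dendritic cell markers and all 9 fibroblast and mesothelial cell markers. In such bulk samples fewer cells of a type and less RNA per cell cannot be told apart.

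Il18 and Il33 were significantly higher in PGRN KO, Il1rn was significantly lower, and Il1a and Il1b, the members with the highest FPKM, were not called. Of the 10 members 7 passed the filter of a mean of at least 1 FPKM, and 3 of these 7 passed the limma test at a Benjamini-Hochberg adjusted p of 0.05, 2 higher and 1 lower. Of the 2 higher, Il33 passed the filter only through its level in PGRN KO. Over all 8882 genes tested 24.2% were called, 10.4% higher and 13.8% lower. The 3 calls among 7 members are read against that background. WT and PGRN KO were fully separate for 3 of the 7 tested members, and for 48.8% of all genes tested. Among the 3 untested members they were separate for Il1r2. Among the tested members the log2 fold changes (PGRN KO minus WT, on the log2(FPKM + 1) scale) had a median of 0.13, against -0.03 over all genes tested.

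**Figure D1:**
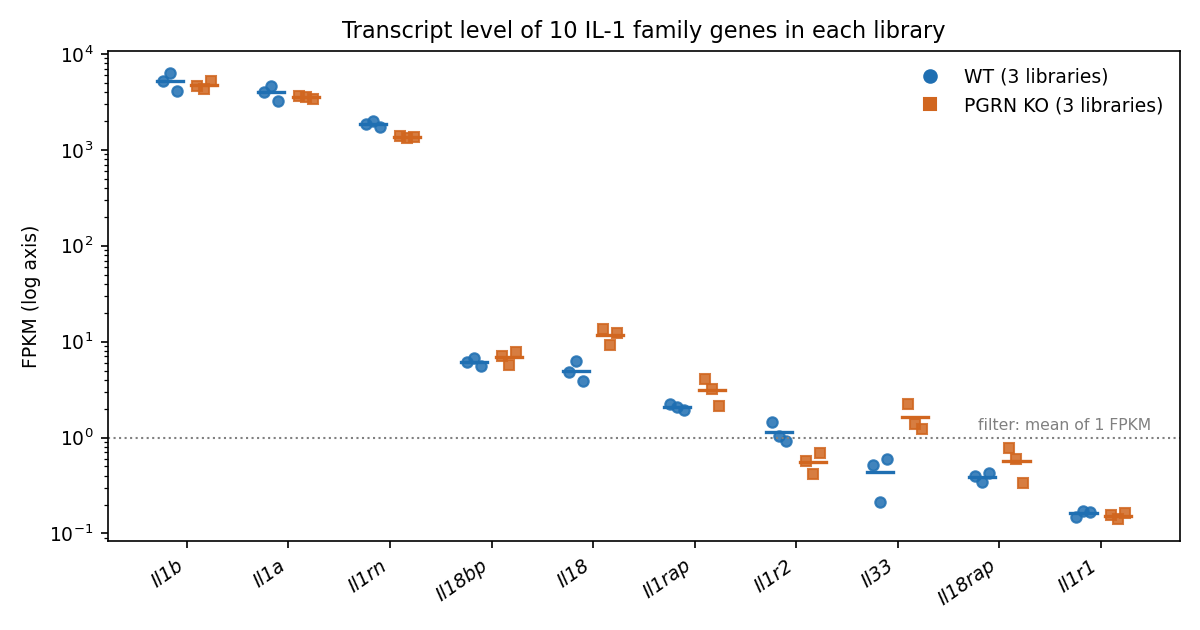
Level of each IL-1 family member in FPKM (log axis) in the 3 WT libraries (circles) and the 3 PGRN KO libraries (squares), with horizontal bars at the group means and a dotted line at the filter of 1 FPKM. Il1a, Il1b and Il1rn lie at 1314 FPKM or more in every library, every PGRN KO point of Il18 and Il33 lies above all WT points, and Il1rn and Il1r2 are lower in all 3.

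The agonists Il1b and Il1a were among the most abundant transcripts of these macrophages, ranking 7 and 11 of all genes by mean FPKM. Il1b (ENSMUSG00000027398, GRCm38 chr2:129364570-129371139, minus strand), the inflammasome-dependent agonist, was measured at 5227, 6310 and 4121 FPKM in WT and at 4603, 4284 and 5194 FPKM in PGRN KO. Il1a (ENSMUSG00000027399, chr2:129299610-129309972, minus strand), the agonist that is active without cleavage, was measured at 4048, 4622 and 3205 FPKM in WT and at 3666, 3530 and 3424 FPKM in PGRN KO. For both genes the PGRN KO libraries lay inside the range of the WT libraries, of which replicate 2 was the highest and replicate 3 the lowest. The group means of Il1b were 5219 ± 1095 and 4694 ± 462 FPKM (SD, n = 3), with a log2 difference of -0.14, a 95% confidence interval of -0.57 to 0.30 and a limma adjusted p of 0.617. The means of Il1a were 3958 ± 712 and 3540 ± 122 FPKM (SD, n = 3), a log2 fold change of -0.15 with an interval of -0.52 to 0.23 and a limma adjusted p of 0.533. A fall or a rise within these intervals was not detectable with 3 libraries per group. The sign of the Il1b difference was not stable, since it was 0.01 without WT replicate 2 and 0.13 after quantile normalization.

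Il1a and Il1b are neighbours, 54.6 kb apart on chromosome 2, and Il1rn lies on the same chromosome at a distance of 104.9 Mb from Il1a. A 222-base stretch of the exons of Il1a, 11.2% of its gene model, is shared with Gm14023 on the opposite strand, and 25 bases of Il1b are shared with Il1bos. The sources used here do not say whether counting used strand, and both neighbours were listed at low levels, 10.2 and 9.04 FPKM on average.

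Il1rn, which encodes the antagonist of IL1R1, was the member that fell. The RefSeq table gives 3 start sites for the gene, and the deposited value is a sum over the whole gene. The promoter of the first start (250 bases before to 50 bases after it, RefSeq, GRCm38.p6, chr2:24336610-24336909, plus strand) is printed because Il1rn changed while its agonists were not called, and the promoter of Il1a (chr2:129309923-129310222, minus strand) is printed beside it because these were the 2 members with an AP-1 match. Capitals mark that match.
Il1rn: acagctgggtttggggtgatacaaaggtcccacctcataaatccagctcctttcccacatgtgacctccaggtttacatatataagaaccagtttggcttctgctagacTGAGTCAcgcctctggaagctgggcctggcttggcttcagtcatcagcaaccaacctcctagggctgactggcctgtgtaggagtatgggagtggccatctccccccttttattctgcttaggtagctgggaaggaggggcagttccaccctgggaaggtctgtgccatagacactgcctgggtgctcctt
Il1a: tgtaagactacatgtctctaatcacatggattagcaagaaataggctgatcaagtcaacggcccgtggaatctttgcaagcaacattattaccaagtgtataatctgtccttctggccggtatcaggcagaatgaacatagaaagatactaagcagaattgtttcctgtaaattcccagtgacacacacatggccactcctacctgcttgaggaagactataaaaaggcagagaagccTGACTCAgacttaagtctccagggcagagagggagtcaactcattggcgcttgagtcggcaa
The AP-1 letters TGANTCA, searched on both strands as all motifs here, were found as TGAGTCA at position -141 from the first Il1rn start and as TGACTCA at position -12 from the Il1a start. They occur in 7.81% of all 32851 promoters of this length in the table. The promoters of the other Il1rn starts held no match to any motif searched. The values for whole genes do not show which start was used.

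Il1rn (ENSMUSG00000026981, chr2:24336853-24351494, plus strand) was measured at 1857, 1980 and 1722 FPKM in WT and at 1392, 1314 and 1349 FPKM in PGRN KO. All 3 PGRN KO libraries were lower than every WT library, and they lay close together. The means were 1853 ± 129 and 1352 ± 39.0 FPKM (SD, n = 3), a level 0.730 times that of WT, and the log2 difference was -0.45 ± 0.11 (SE; limma, adjusted p of 0.0259). The fall kept its direction under all 17 alternatives and was called under 11 of them. It lost the call without a filter (adjusted p of 0.132), without WT replicate 1, 2 or 3 (0.128, 0.107 and 0.0578) and without PGRN KO replicate 4 or 5 (0.0709 and 0.0730), all by limma. Without PGRN KO replicate 6 the limma adjusted p was 0.00633.

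Because agonist and antagonist compete for a single receptor, their transcripts were also set against each other within each library. These ratios were chosen after the values had been seen. Their size depends on the gene model lengths, which are the same in both genotypes. Levels in PGRN KO replicate 6 fell with gene length, however, and Il1rn (5535 bases) is longer than Il1b (1907) and Il1a (1974). After correction for gene length the log2 fold changes of Il1b, Il1a and Il1rn were -0.22, -0.22 and -0.40. As reported they were -0.14, -0.15 and -0.45. The ratios were not recomputed with that correction. The ratio of Il1b to Il1rn was 2.81, 3.19 and 2.39 in WT and 3.31, 3.26 and 3.85 in PGRN KO. That of Il1a to Il1rn was 2.18, 2.33 and 1.86 in WT and 2.63, 2.69 and 2.54 in PGRN KO. In both ratios every PGRN KO library exceeded every WT library, with means of 2.80 ± 0.397 against 3.47 ± 0.328 and of 2.13 ± 0.241 against 2.62 ± 0.0753 (SD). The ratio of Il1b to Il1a was 1.31 ± 0.0445 in WT and 1.33 ± 0.165 in PGRN KO (SD), with overlapping groups. By a two-sided exact permutation test the first 2 ratios had p = 0.1, the smallest that 3 against 3 libraries can give, and the third had p = 1. Adjusted over the 4 ratios computed (the other is Il18 to Il18bp), the exact permutation p-values were 0.133, 0.133 and 1, so that none passed the threshold.

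**Figure D2:**
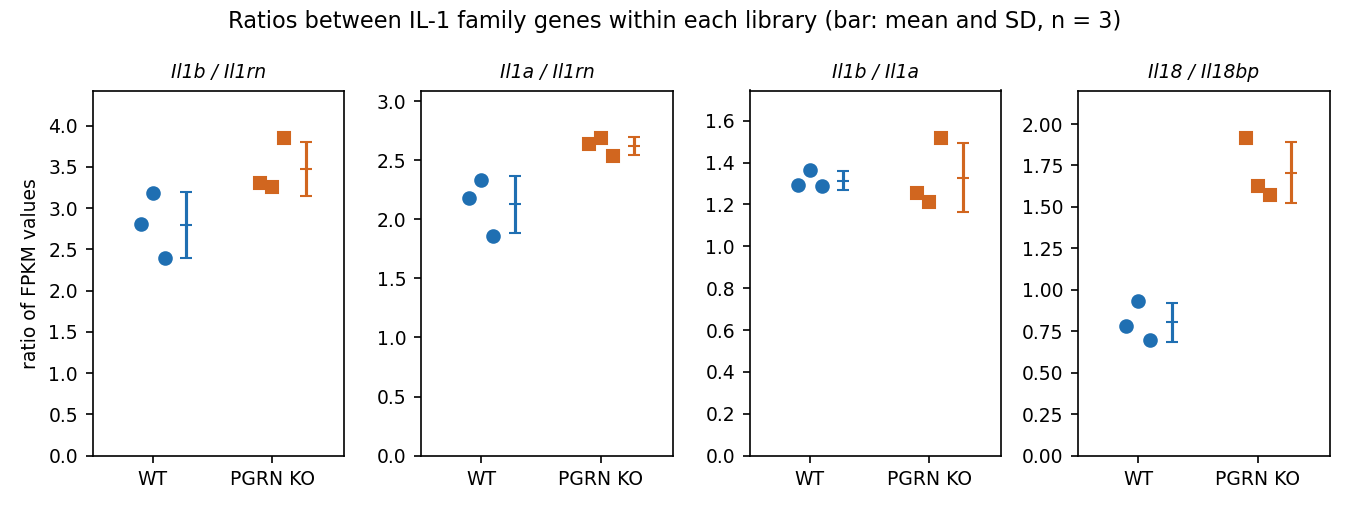
Ratio of FPKM values within each library for 4 pairs of IL-1 family members, with points for the 3 WT and 3 PGRN KO libraries and bars for the mean and SD. For Il1b to Il1rn, Il1a to Il1rn and Il18 to Il18bp all PGRN KO points lie above the WT points, and Il1b to Il1a overlaps between the genotypes.

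Il18, the gene of the other caspase-1 substrate of the family, was the member with the most stable rise. Its promoter (RefSeq, GRCm38.p6, chr9:50554450-50554749, plus strand) and that of the first of the Il33 starts (chr19:29924863-29925162, plus strand) are printed as those of the 2 members that rose. Neither held the letters of any of the 4 motifs searched, and no letter is therefore in capitals.
Il18: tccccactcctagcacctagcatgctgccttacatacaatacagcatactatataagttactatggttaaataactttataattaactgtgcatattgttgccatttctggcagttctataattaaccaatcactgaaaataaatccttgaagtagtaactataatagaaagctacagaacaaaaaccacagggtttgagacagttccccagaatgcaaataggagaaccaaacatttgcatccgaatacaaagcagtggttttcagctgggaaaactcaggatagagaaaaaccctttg
Il33: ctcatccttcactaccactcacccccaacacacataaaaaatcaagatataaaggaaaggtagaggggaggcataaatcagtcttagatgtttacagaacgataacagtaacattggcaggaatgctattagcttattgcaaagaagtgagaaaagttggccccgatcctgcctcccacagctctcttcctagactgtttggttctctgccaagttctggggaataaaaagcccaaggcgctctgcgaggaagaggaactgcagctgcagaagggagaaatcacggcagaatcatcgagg
The absence of a match says only that these letters are not in this window. The motifs were the interferon-stimulated response element as GAAANNGAA, the gamma-activated site as TTCNNNGAA, NF-κB as GGANTTTCC and AP-1 as above, found in 8.56%, 8.3%, 1.25% and 7.81% of all promoters in the table. Over the 14 promoters of the 10 members each motif but AP-1 was found in 1 member. Il1rap held GAAAAAGAA at position 20 from its start, Il1r2 held TTCAAGGAA at position -111 and Il18rap held GGAAATTCC at position -19.

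Il18 (ENSMUSG00000039217, chr9:50554827-50581840, plus strand) was measured at 4.81, 6.23 and 3.92 FPKM in WT and at 13.7, 9.22 and 12.4 FPKM in PGRN KO. These levels rested on 83, 95 and 73 fragments in WT and on 244, 180 and 221 fragments in PGRN KO. Every PGRN KO library was above every WT library. The means were 4.99 ± 1.16 and 11.8 ± 2.29 FPKM (SD, n = 3), 2.36-fold higher in PGRN KO, and the log2 difference was 1.09 ± 0.19 (SE; limma, adjusted p of 0.00863). Il18 was called under all 17 alternatives, with limma adjusted p-values of 0.00116 to 0.0430. Without PGRN KO replicate 6 the log2 difference was 1.05 and the limma adjusted p was 0.0104. Even after this rise Il18 remained far below Il1b, which was at 4121 FPKM or more in every library.

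Il18bp (ENSMUSG00000070427, chr7:102014885-102018690, minus strand), whose secreted product neutralises IL-18, was measured at 6.16, 6.68 and 5.62 FPKM in WT and at 7.14, 5.67 and 7.88 FPKM in PGRN KO. The groups overlapped, since PGRN KO replicate 5 lay within the WT range. The log2 fold change was 0.13 with a 95% confidence interval of -0.17 to 0.44 and a limma adjusted p of 0.472. The ratio of Il18 to Il18bp was 0.781, 0.933 and 0.698 in WT and 1.92, 1.63 and 1.57 in PGRN KO. Per length of the gene model Il18 was thus below Il18bp in every WT library and above it in every PGRN KO library. By fragments alone Il18bp was the higher in every library, at 312, 299 and 307 in WT and 374, 325 and 412 in PGRN KO. The mean ratios were 0.804 ± 0.119 and 1.71 ± 0.184 (SD), with an exact permutation p of 0.1, or 0.133 adjusted over the 4 ratios. The gene models of Il18 and Il18bp have 1031 and 3026 bases. After correction for gene length their log2 fold changes were 1.01 and 0.11. Of the Il18bp gene model 80 exonic bases, 2.64%, are shared with Numa1 on the opposite strand.

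Il33 (ENSMUSG00000024810, chr19:29925114-29960718, plus strand) was a low transcript in both genotypes and was higher in PGRN KO. It was measured at 0.518, 0.211 and 0.595 FPKM in WT and at 2.26, 1.39 and 1.22 FPKM in PGRN KO. The libraries gave 25, 9 and 31 fragments in WT and 113, 76 and 61 in PGRN KO, 65 against 250 in all, and the groups did not overlap. The means were 0.441 ± 0.203 and 1.63 ± 0.557 FPKM (SD, n = 3), 3.68-fold higher in PGRN KO. The log2 fold change was 0.85 ± 0.18 (SE) on the log2(FPKM + 1) scale, which understates the change of so low a gene, with a limma adjusted p of 0.0171. With a pseudocount of 0.1 it was 1.71, with a limma adjusted p of 0.0228. The mean of Il33 over all libraries was 1.03 FPKM, so that it was tested only because of its level in PGRN KO. It was called under 13 of 16 alternatives and lost the call without a filter (limma adjusted p of 0.0609) and without WT replicate 1 or 2 (0.0587 and 0.0668). Without PGRN KO replicate 6 the log2 fold change was 0.96 and the limma adjusted p was 0.00938.

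The sums of some marker lists of other cells were higher with Il33. All 9 fibroblast and mesothelial cell markers had a mean below 1 FPKM, and their summed level was at most 1.28 FPKM in WT and at least 2.04 FPKM in PGRN KO. The mean was higher in PGRN KO for 4 of the 9, the collagen genes Col1a1, Col1a2 and Col3a1 and Dcn, and lower for 5, Lum, Upk3b, Msln, Krt19 and Krt8. Dcn, a proteoglycan gene of fibroblasts that was the highest of the 9 and was chosen after its values were seen, was measured at 0.461, 0.602 and 0.408 FPKM in WT and at 1.89, 1.10 and 1.07 FPKM in PGRN KO. Replicate 4 was the highest library for both Dcn and Il33, but it was the highest PGRN KO library for 6 of the 10 members. The mast cell and B cell sums given above were also higher in all PGRN KO libraries. The part of these cells in the level of Il33 was not tested.

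The receptor genes were all low. Il1r1 (ENSMUSG00000026072, chr1:40225080-40317257, plus strand), the signalling receptor of IL-1, was measured at 0.150, 0.170 and 0.165 FPKM in WT and at 0.154, 0.141 and 0.164 FPKM in PGRN KO, on 51 and 52 fragments in all. The groups overlapped, and Il1r1 was the lowest member in both genotypes. It did not pass the filter, and in a voom fit to genes with a mean of at least 10 fragments, an alternative chosen after seeing the data in which 22.0% of 11725 genes were called, its log2 fold change was -0.07 with a 95% confidence interval of -0.70 to 0.57 and a limma adjusted p of 0.884. A change of less than these bounds was not detectable at this depth.

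Il1r2 (ENSMUSG00000026073, chr1:40074079-40125231, plus strand), the decoy receptor, was measured at 1.44, 1.03 and 0.929 FPKM in WT and at 0.575, 0.415 and 0.697 FPKM in PGRN KO. All PGRN KO libraries were below all WT libraries, on 57 against 107 fragments. The means were 1.13 ± 0.272 and 0.563 ± 0.142 FPKM (SD, n = 3), a level 0.497 times that of WT, but the mean over all libraries was below 1 FPKM and the gene was not tested. In the voom fit with at least 10 fragments the log2 difference was -0.99 ± 0.31 (SE; limma, adjusted p of 0.0513), and without a filter the limma adjusted p was 0.127, where 5.96% of 22912 genes were called. Neither passed the threshold. Neutrophils are a known source of IL1R2, and the summed level of their 11 markers was also lower in all PGRN KO libraries. That sum was almost wholly S100a8 and Csf3r, while Ly6g, Cxcr2 and Elane were at 0 in all 6 libraries. The part of neutrophils in the level of Il1r2 was not tested.

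Il1rap (ENSMUSG00000022514, chr16:26581704-26730117, plus strand), the co-receptor of the IL-1, IL-33 and IL-36 receptors, was measured at 2.26, 2.08 and 1.94 FPKM in WT and at 4.08, 3.18 and 2.14 FPKM in PGRN KO. PGRN KO replicates 4 and 5 were above all WT libraries and replicate 6 lay within the WT range. The log2 fold change was 0.39 ± 0.17 (SE), with a 95% confidence interval of -0.02 to 0.81 and a limma adjusted p of 0.143, so that Il1rap was not called. Without PGRN KO replicate 6 the log2 fold change was 0.58 and the limma adjusted p was 0.00825. Correcting each library for gene length or weighting libraries by their quality also gave a call, with limma adjusted p-values of 0.00725 and 0.00330. These fits called more of the 8882 genes, 3668, 2814 and 4225 in that order, against 2151 in the reported fit. The Il1rap gene model, at 11360 bases, is the longest of the 10 members, and replicate 6 is the library whose levels fell with gene length. Its part in the result beyond these values was not tested.

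Il18rap (ENSMUSG00000026068, chr1:40515362-40551705, plus strand), the accessory chain of the IL-18 receptor, was measured at 0.398, 0.340 and 0.427 FPKM in WT and at 0.770, 0.595 and 0.334 FPKM in PGRN KO. As for Il1rap, replicates 4 and 5 were above all WT libraries and replicate 6 was not. Il18rap did not pass the filter and was not fitted without replicate 6. In the voom fit with at least 10 fragments the log2 fold change was 0.48 with a 95% confidence interval of -0.25 to 1.21 and a limma adjusted p of 0.308. T and NK cells carry this receptor, and the sum of their markers was higher in PGRN KO, with its highest value of 8.38 FPKM in replicate 6, the library with the lowest Il18rap. Levels in replicate 6 fell with gene length. The gene model of Il18rap has 6752 bases, and that of Trbc2, the highest of these markers in replicate 6, has 692. The part of gene length or of these cells in the level of Il18rap was not tested. Il1r1, Il1r2 and Il18rap lie in a cluster of 6 receptor genes that spans 477.6 kb of chromosome 1, together with Il1rl2, Il1rl1 and Il18r1.

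**Figure D3:**
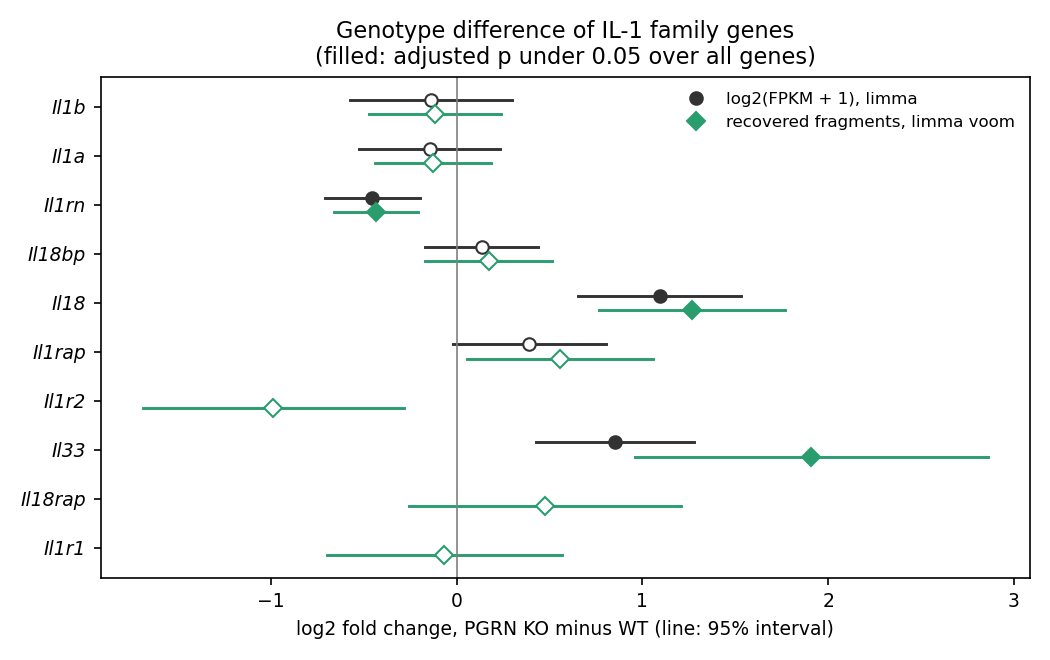
Log2 fold change (PGRN KO minus WT) of the members with 95% confidence intervals, for the reported fit on log2(FPKM + 1) and the voom fit to genes with at least 10 fragments, with filled symbols for an adjusted p past the threshold. The intervals of Il18 and Il33 lie above 0 and that of Il1rn below it, and those of Il1a, Il1b and Il18bp cross 0. The voom intervals of Il1rap and Il1r2 do not cross 0, but their adjusted p-values missed the threshold.

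FPKM are per length of the gene model, which joins the exons of all annotated transcripts, so the order of the members depends on these lengths. By fragments summed over each group Il1rn was above Il1b in WT (506038 against 486528) and below it in PGRN KO (400185 against 477890). The order in WT was not the same in every library, since in WT replicate 2 Il1rn was below Il1b (162113 against 177975). In WT the order of mean FPKM was Il1b, Il1a, Il1rn, Il18bp, Il18, Il1rap, Il1r2, Il33, Il18rap and Il1r1, and neighbours overlapped between libraries for Il1b and Il1a, for Il18bp and Il18, and for Il33 and Il18rap. In PGRN KO the order was Il1b, Il1a, Il1rn, Il18, Il18bp, Il1rap, Il33, Il18rap, Il1r2 and Il1r1, and the neighbours that overlapped were Il1rap and Il33, and Il18rap and Il1r2. The members took 2.76%, 2.98% and 2.44% of all fragments in WT and 2.50%, 2.45% and 2.42% in PGRN KO, with overlapping groups. At least 99.6% of these fragments in every library came from Il1a, Il1b and Il1rn. WT replicate 2 was the highest WT library for 6 of the 10 members and WT replicate 3 the lowest for 7, which was also the order of the summed FPKM of these libraries.

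The rest of the pathway was described from 6 gene lists, which were written with earlier results of these data known. Of the 5 other IL-1 family ligands in the table, the 2 that passed the filter were both IL-36 genes. Il1f9, the gene of IL-36γ, rose from 15.4 ± 1.55 to 21.8 ± 1.61 FPKM (SD, n = 3), by 0.47 ± 0.11 (SE) on the log2 scale (limma, adjusted p of 0.0209), but the adjusted p was 0.0628 without PGRN KO replicate 4 and 0.0893 and 0.0824 without WT replicate 1 or 3. Il1f6, the gene of IL-36α and named after its values were seen, was at 39.3 ± 6.71 and 29.2 ± 4.42 FPKM (SD, n = 3) and was not called (limma adjusted p of 0.103). Of 6 other receptors Il1rl2, the IL-36 receptor, was the only gene tested, at 2.48 ± 0.138 and 2.38 ± 0.668 FPKM (SD, n = 3) with a limma adjusted p of 0.794. Il18r1, the binding chain of the IL-18 receptor, was below the filter at 0.552 ± 0.0781 and 0.912 ± 0.216 FPKM (SD), with every PGRN KO library above every WT library.

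Of 15 tested genes for the maturation of IL-1β and IL-18, 4 rose and 3 fell, with a median log2 fold change of 0.10, against 10.4% higher and 13.8% lower calls and a median of -0.03 over all genes tested. Casp1, the gene of caspase-1, rose from 25.2 ± 2.27 to 55.2 ± 10.9 FPKM (SD, n = 3), or by 1.09 on the log2 scale (limma, adjusted p of 0.00520), and Pycard, the gene of the adaptor ASC, rose from 1.35 ± 0.179 to 3.13 ± 0.840 FPKM (adjusted p of 0.0130). Nlrc4, a sensor of bacterial flagellin and secretion systems, fell from 9.05 ± 0.793 to 4.63 ± 0.522 FPKM (limma, adjusted p of 0.00372), and P2rx7, the ATP-gated channel upstream of NLRP3, fell from 6.31 ± 0.418 to 3.59 ± 0.377 FPKM (adjusted p of 0.00576). The remaining calls, named after their values were seen, were Casp8 and Capn1, which rose by 0.52 and 0.49 on the log2 scale, and the sensor gene Nlrp3, which fell by 0.68 from 289 ± 48.1 FPKM in WT. Casp1, Nlrc4 and P2rx7 were called under every alternative that tested them, and Pycard lost the call without WT replicate 1 or 2 (limma adjusted p of 0.0573 and 0.0595). Without WT replicate 1 or 2, Nlrp3, Casp8 and Capn1 lost the call too (limma adjusted p of 0.0574 to 0.0992). Casp8 and Capn1 also lost it without WT replicate 3 (0.0691 and 0.0934), Capn1 without PGRN KO replicate 4 (0.0607) and Nlrp3 without PGRN KO replicate 5 (0.0530). With no filter Nlrp3 and Capn1 lost it (0.0739 and 0.0650), as did Nlrp3 with quantile normalization (0.0623).

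Of 20 tested genes for receptor-proximal signalling 4 fell and none rose, with a median log2 fold change of -0.20. The share called was close to the 24.2% over all genes tested. Tollip, whose product binds IRAK1 and restrains signalling, fell from 85.3 ± 1.48 to 51.7 ± 3.36 FPKM (SD, n = 3), with a log2 difference of -0.71 and an adjusted p of 0.00324 by limma, which passed the threshold under every alternative. Ube2n, a ubiquitin-conjugating enzyme that acts with TRAF6, Nfkb1, the NF-κB p105 and p50 subunit, and Irak3, an inhibitory IRAK family member, fell by 0.41, 0.51 and 0.53 on the log2 scale, with limma adjusted p-values of 0.0173, 0.0193 and 0.0242. Each of these 3 lost the call without WT replicate 1, 2 or 3 (limma adjusted p of 0.0529 to 0.101 over the 3 genes), and Ube2n also without PGRN KO replicate 4 or 5 (0.0514 and 0.0520). Irak3 also lost it on the TPM scale (0.0886), with no filter (0.0612), with quantile normalization (0.0506) and with the sum of fragments as library size (0.0533), and Nfkb1 on the TPM scale (0.0765), all by limma. Among 4 tested genes for receptor shedding 1 fell, a share close to the 24.2% over all genes. It was the sheddase gene Adam17, which fell from 25.1 ± 0.911 to 18.9 ± 1.34 FPKM (SD, n = 3; limma, adjusted p of 0.0217). It lost the call on the TPM scale (0.1345), with the sum of fragments as library size (0.0851), and without PGRN KO replicate 4 (0.0547) or WT replicate 1, 2 or 3 (0.108, 0.0980 and 0.0680). The median log2 fold change of this list was -0.06.

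Of 15 genes known to respond to IL-1, 6 fell and none rose, with a median log2 fold change of -0.56, against 13.8% lower calls and a median of -0.03 over all genes tested. Mmp9, a gelatinase gene, fell from 1.79 ± 0.204 to 0.320 ± 0.138 FPKM (SD, n = 3) with a limma adjusted p of 0.00211. Csf3, the gene of G-CSF, fell from 1987 ± 303 to 1141 ± 172 FPKM (limma, adjusted p of 0.0160), Hp, the gene of haptoglobin, from 213 ± 7.61 to 117 ± 32.7 FPKM (adjusted p of 0.0159), and Nfkbiz, the gene of IκBζ, from 418 ± 83.1 to 230 ± 36.5 FPKM (adjusted p of 0.0177). Ptgs2 and Zc3h12a, named after their values were seen, were the remaining calls, with limma adjusted p-values of 0.0393 and 0.0345. Mmp9 passed the filter only through its level in WT, at a mean of 1.06 FPKM over all libraries, and its limma adjusted p was 0.0111 with no filter and 0.00121 in the voom fit with at least 10 fragments. The other 5 lost the call without WT replicate 1 or 2 (limma adjusted p of 0.0628 to 0.140), Hp, Ptgs2 and Zc3h12a also without WT replicate 3 (0.0605, 0.0560 and 0.0710), Csf3, Ptgs2 and Zc3h12a without PGRN KO replicate 4 (0.0561, 0.0560 and 0.0687) and Ptgs2 and Zc3h12a without PGRN KO replicate 5 (0.0677 and 0.0914). With no filter Nfkbiz, Ptgs2, Zc3h12a, Csf3 and Hp were not called (limma adjusted p of 0.0531 to 0.184), nor were Ptgs2 and Zc3h12a with quantile normalization (0.0869 and 0.0522) or Ptgs2 on the TPM scale (0.0614). The number of genes lower in this list ranged from 1 to 8 when a library was left out. These genes also respond to other inflammatory signals, and their calls are no measure of IL-1 activity.

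**Figure D4:**
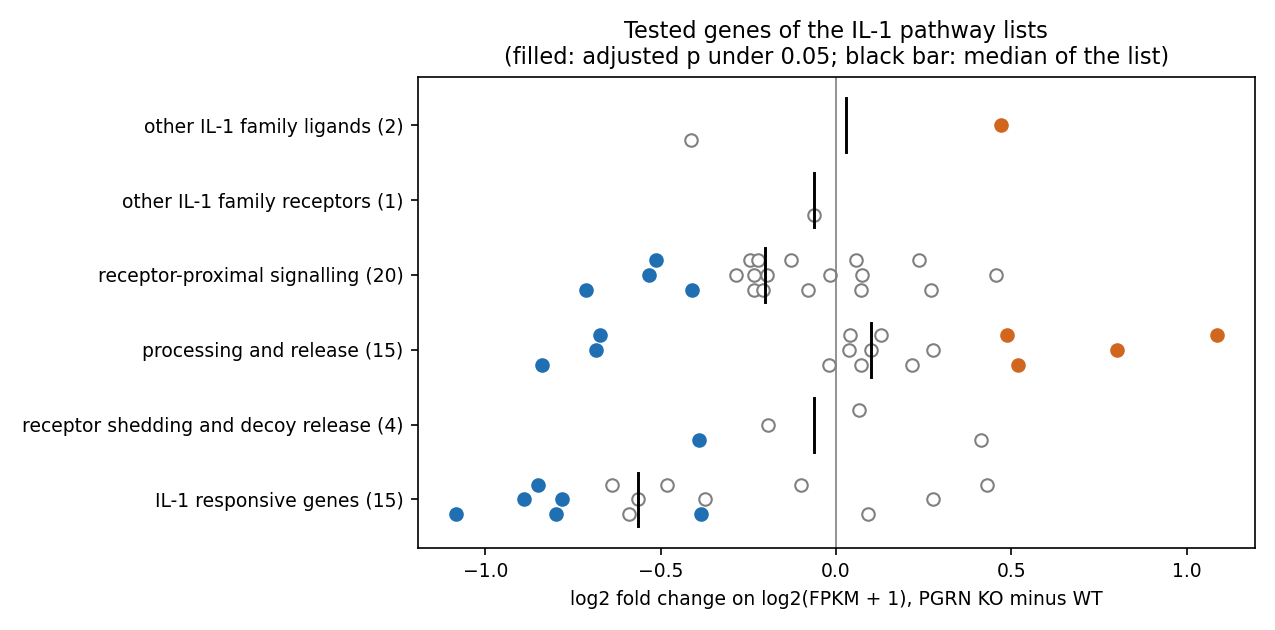
Log2 fold change (PGRN KO minus WT, log2(FPKM + 1) scale) of every tested gene of the 6 pathway lists, with 1 point per gene, called genes filled (blue lower, orange higher) and a black bar at the median of each list. All called genes of the IL-1 responsive and signalling lists lie below 0, and those of processing and release lie on both sides.

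**Figure D5:**
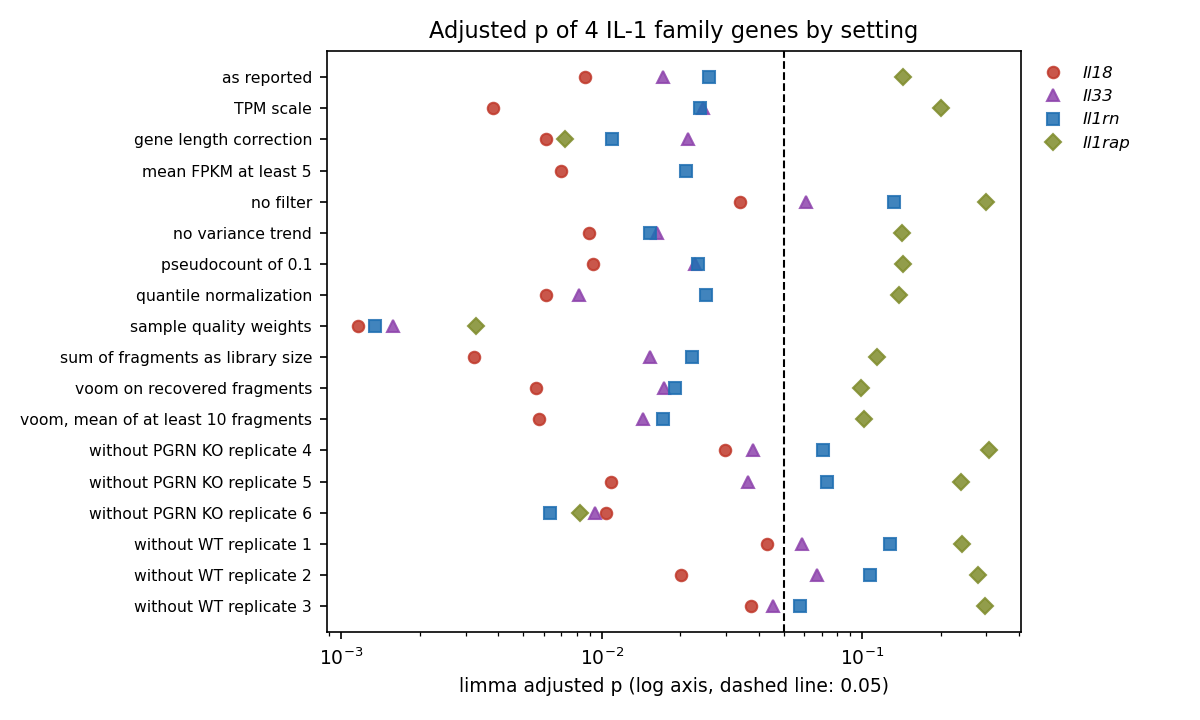
Limma adjusted p of Il18, Il33, Il1rn and Il1rap (log axis, dashed line at 0.05) in the reported fit and under each alternative. Il18 is past the threshold of 0.05 in every fit, Il1rn and Il33 cross it when WT replicate 1 or 2 is left out, and Il1rap passes it when PGRN KO replicate 6 is left out.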

How the data were processed

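RNA was sequenced from macrophages challenged with C. albicans, 3 WT and 3 PGRN KO libraries. The authors deposited FPKM per gene and library, with gene lengths. The submitters' processing notes name HISAT2 2.0.5, featureCounts 1.5.0-p3, DESeq2 1.20.0 and the build GRCm38 (mm10), whereas the methods of the study name HTSeq for counting. Their annotation release is not stated there. Multiplied by gene length, 100% of the FPKM above 0 came out as whole numbers of fragments (tolerance of 0.001), which are the fragments quoted here, and intervals cover counting error and library spread only. The library sizes behind the FPKM were 0.925 to 1.09 times the summed fragments. Of the 54532 genes, 99.932% were found in GENCODE for GRCm38, which gave exons, and promoters came from RefSeq (GRCm38.p6).

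The study tested counts, but the deposited values are FPKM. Genotypes were therefore compared with limma 3.58.1 in R 4.3.3 on log2(FPKM + 1), over the 8882 genes with a mean of at least 1 FPKM, with a variance trend, no covariates, two-sided tests and Benjamini-Hochberg adjustment over all of them at 0.05. Besides 16 alternatives, 1 was chosen after seeing the data, voom on genes with a mean of at least 10 fragments. The members, the 6 pathway lists, the 8 marker lists and the motifs were chosen with earlier results of these data known. Named genes were Grn, the members, up to 4 called genes per list by adjusted p and, in a list without calls, the 2 most abundant. The procedure was tested on simulated data.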

Additional observations from a re-analysis of the deposited data

How the results depend on the processing

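Il18 was called in every fit, and Il1a, Il1b and Il18bp in none. Among single log2 fold changes, 106 values kept their direction and side of the threshold, 9 lost the call, 3 gained it and 2 changed sign. The log2 differences of the 3 members under the filter, Il1r1, Il1r2 and Il18rap, moved to -0.065, -0.986 and 0.476 in the voom fit with at least 10 fragments. Both sign changes were of Il1b, 0.129 with quantile normalization and 0.012 without WT replicate 2 (-0.296 to 0.012 over the fits that leave out a library). The number of members higher was 2 as reported, 1 with a minimum mean of 5 FPKM (Il33 was then not tested) or with no filter, and 1 to 3 when a library was left out, with 3 without PGRN KO replicate 6 because Il1rap was added. The number lower was 1 as reported, 0 with no filter and 0 to 1 when a library was left out.

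In the pathway lists, the other ligands had 1 higher, 0 to 1 when a library was left out, and 0 lower, but 1 lower after correction for gene length and with quality weights. Signalling genes had 0 higher, but 1 on the TPM scale and with the sum of fragments as library size, 2 after correction for gene length, quantile normalization, quality weights and both voom fits, and 0 to 1 when a library was left out. Their 4 lower calls became 2 on the TPM scale and 1 to 4 without a library. Processing genes had 4 higher, 1 to 4 without a library, and 3 lower, 2 to 3 without a library. Shedding genes had 0 higher, but 1 after correction for gene length, with the sum of fragments and with voom, 2 with quality weights and with voom on at least 10 fragments, and 0 to 2 without a library. Their 1 lower call became 0 on the TPM scale and with the sum of fragments, and 0 to 1 without a library. IL-1 responsive genes had 6 lower, 1 with no filter, 11 with quality weights and 1 to 8 without a library. Where no value above shows a cause, the cause was not tested.

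Over all genes 2151 were called, 921 higher and 1230 lower. Higher calls were 911 of 1504 on the TPM scale, 1179 of 1874 with the sum of fragments as library size, 1366 genes were called with no filter, 4225 with quality weights, 3668 without PGRN KO replicate 6 and 713, 855 and 883 without WT replicate 1, 2 and 3, and 1390 without PGRN KO replicate 4. No paired analysis was possible because replicates are numbered 1, 2 and 3 in WT and 4, 5 and 6 in PGRN KO. Members under 20 fragments per library, such as Il1r1, are limited by depth.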
